A study of Rattus norvegicus with 8 samples.

Results

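The serotonin receptor genes Htr1a, Htr1b, Htr1d, Htr2a, Htr2b, Htr2c, Htr3a, Htr4, Htr5b and Htr7 were examined in the lumbar spinal cord of stressed and control rats. The 10 genes were chosen by name from the 26514 gene names on the array, and 13 probes represented them, 1 probe for each of 7 genes and 2 probes for each of Htr2a, Htr2c and Htr7. The animals were male Wistar rats, 12 weeks old, with no transgene and no drug. In water avoidance (WA) stress, a rat is kept on a small platform surrounded by water. The 4 stressed rats had sessions on 10 days. The 4 control rats were not exposed to the stressor, and the study describes its unstressed rats as handled for 10 days. The L6S1 segments were collected 24 h after the last session, and the RNA of each rat was hybridised to 1 single-colour Agilent array of 60-base probes. The segments hold neurons, glia and vessels together, so fewer cells of a type and less RNA per cell cannot be told apart.

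Serotonin reaches the spinal cord mainly in axons that descend from the raphe nuclei of the brainstem, and in the dorsal horn it can dampen or enhance the relay of signals from skin and viscera, depending on the receptor. The type 1 and type 5 receptors couple mainly to Gi/o proteins and lower the activity of the cell, the type 2 receptors couple to Gq and phospholipase C, the type 4 and type 7 receptors couple to Gs and adenylyl cyclase, and the type 3 receptor is an ion channel opened by serotonin. Many of these receptors are carried by a minority of cells, so their transcripts are dilute in whole tissue RNA.

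Each receptor signal below is the 60-base stretch that a probe captured, and 3 sets of probe sequences are shown because they bear on what was measured. The first set holds the type 1 receptors, which are close relatives. Their probes and that of Htr1f lay over the same stretch of the aligned receptors, and the capitals mark the 17 bases, of the 38 that all 4 probes covered, that were the same in the 4 probes.
Htr1a probe, rn4 chr2:36435727-36435786, plus strand: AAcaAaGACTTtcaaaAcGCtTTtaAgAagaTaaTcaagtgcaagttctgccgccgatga
Htr1b probe, rn4 chr8:86700094-86700153, minus strand: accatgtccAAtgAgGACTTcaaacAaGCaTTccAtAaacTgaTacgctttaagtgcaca
Htr1d probe, rn4 chr5:155189728-155189787, plus strand: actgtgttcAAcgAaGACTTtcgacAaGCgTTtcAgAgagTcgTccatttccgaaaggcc
Htr1f probe, rn4 chr11:2260600-2260659, minus strand: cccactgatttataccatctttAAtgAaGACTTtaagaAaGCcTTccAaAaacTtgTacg

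Over this window of 38 bases, a pair of these probes shared between 21 bases, or 55.3%, for Htr1a and Htr1b, and 30 bases, or 78.9%, for Htr1b and Htr1f. The longest run of identical bases between probes of different receptors examined here was 9 bases. The second set holds the 5′ probes of Htr2c and Htr7, whose differences between groups had the opposite sign to those of the 3′ probes, and the third is the single probe of the channel subunit Htr3a.
Htr2c 5′ probe, rn4 chrX:31015679-31015738, minus strand: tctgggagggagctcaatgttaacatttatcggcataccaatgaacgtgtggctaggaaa
Htr7 5′ probe, rn4 chr1:240145408-240145467, minus strand: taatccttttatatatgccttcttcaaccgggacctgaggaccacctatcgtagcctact
Htr3a probe, rn4 chr8:52161175-52161234, minus strand: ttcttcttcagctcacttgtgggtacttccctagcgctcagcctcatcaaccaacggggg

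The remaining probes lay on rn4 at chr15:55532171-55532230 for the Htr2a 5′ probe and chr15:55533559-55533618 for the Htr2a 3′ probe on the plus strand, chrX:31013361-31013420 for the Htr2c 3′ probe and chr1:240135108-240135167 for the Htr7 3′ probe on the minus strand, chr9:84840183-84840242 for Htr2b and chr13:33545417-33545476 for Htr5b on the minus strand, and chr18:58468820-58468879 for Htr4 on the plus strand. Whether each stretch is coding or untranslated was not analysed here.

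Most of the receptors were detected. A probe was tested where the scanner software called it well above background in 4 or more of the 8 rats, and 12 of the 13 receptor probes, for 9 of the 10 genes, passed. In 7 genes a probe was above background on all 8 arrays. Htr4, the Gs-coupled type 4 receptor, was well above background on 0 of 8 arrays and was not tested. Htr1a was above background in 4 stressed and 2 control rats, and Htr1b in 4 stressed and 3 control rats.

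All levels are given as the log2 of the probe's signal minus that of the 75th percentile of its array, so that 0 is the 75th percentile, and levels of different probes give no order of RNA levels, because probes bind with different strength. The unscaled signals show how close to the floor most receptors lay. The median signals of Htr1a, Htr1b and Htr1d over the 8 arrays were 22.5, 16.3 and 39.2, those of Htr2b and Htr5b were 49.6 and 83.6, and that of Htr3a was 1028. Between the 2 spots that carried each probe on an array, the log2 signal differed by a median of 0.39 and at most 1.15 for Htr1b, and by a median of 0.03 and at most 0.05 for Htr3a, so a value of Htr3a is the more precise.

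Across arrays, control 2 stood apart from the other 3 control rats, and all 8 arrays lay on 1 slide. By the file headers, row 1 of that slide held all stressed rats and row 2 all control rats, so slide row and stress cannot be told apart. Over the 1885 transcripts that had a pair of probes separated by 300 bases or more, the 5′ minus 3′ signal of each array (log2, centred over arrays) was 0.09 to 0.17 in the stressed rats, 0.22 in control 2 and -0.30 to -0.18 in the other 3 control rats. The group difference in this value was 0.28 (exact permutation test, two-sided, p = 0.143). The number of probes above background was 22998 to 24064 per array and the 75th percentile signal was 1739 to 2332. Differences of the receptors are given also without control 2, and with the 5′ minus 3′ value as a covariate, where either changed a call or a sign. Of the control rats only control 2 lay with the stressed rats in this value, so a fit with the covariate rests mostly on control 2. Without control 2 the value parts the groups fully, and stress and this value cannot be told apart. Whether control 2 differed in RNA quality, or its label was exchanged, was not tested.

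**Figure D1:**
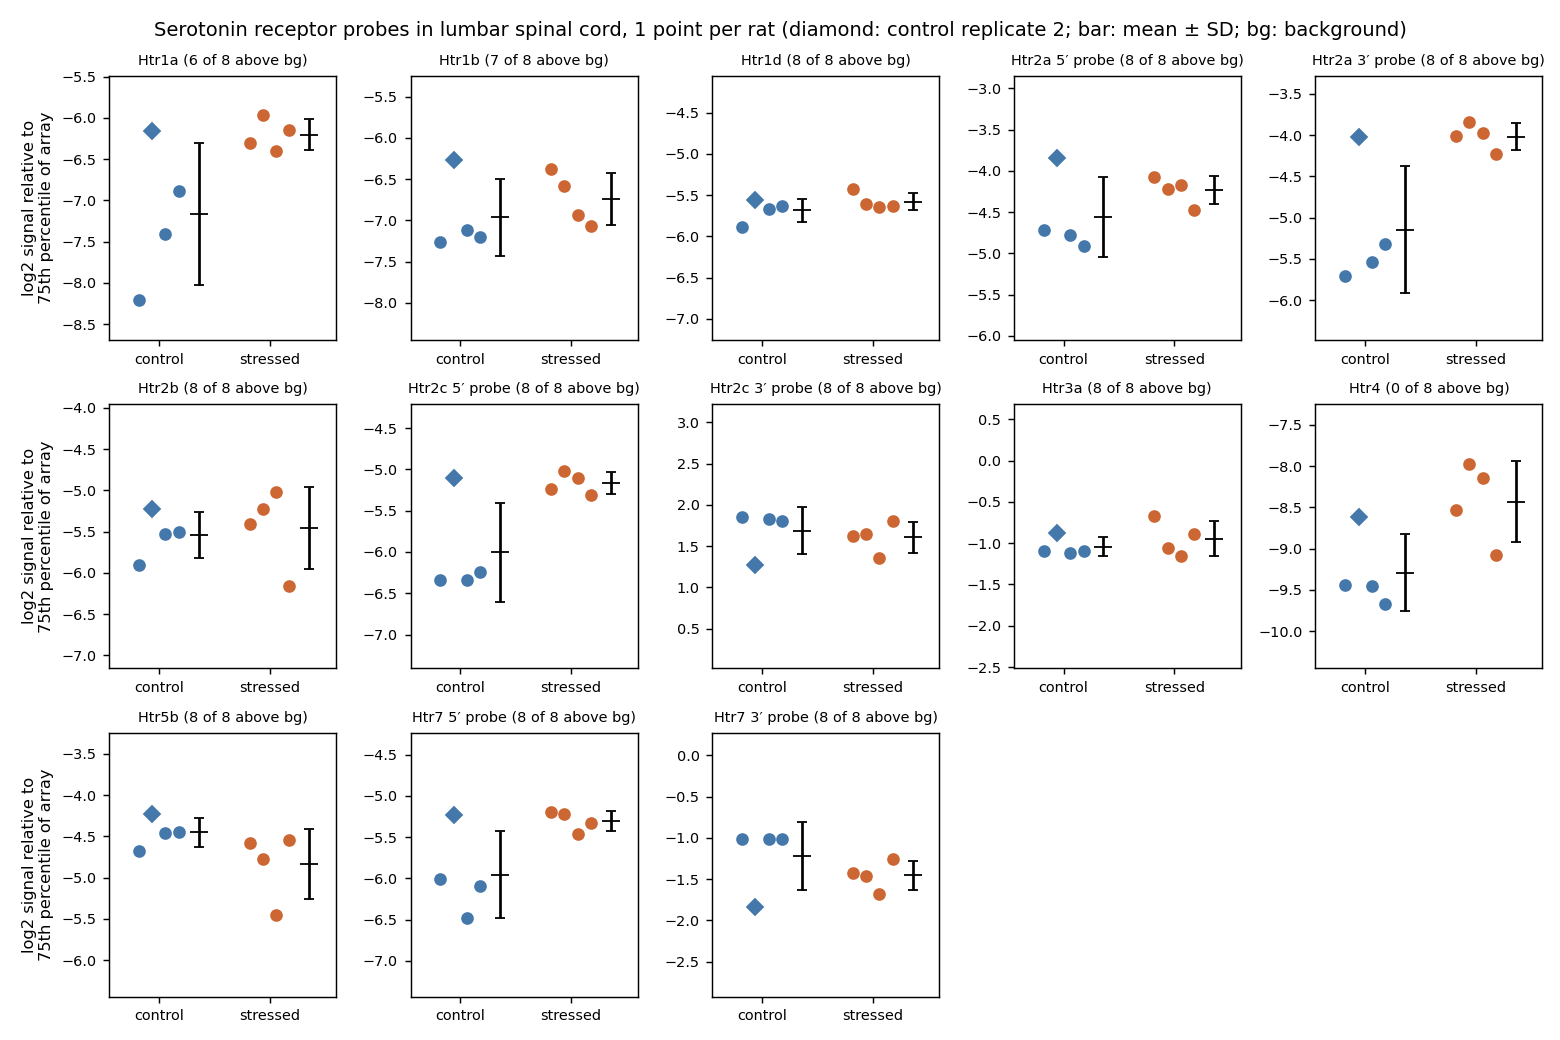
Scaled log2 signal of the 13 receptor probes, with the array's 75th percentile at 0 (vertical axis, the same span in every panel, at different heights) for 4 control and 4 stressed rats, with 1 point per rat, control 2 as a diamond and the mean ± SD beside each group. In Htr1a, the Htr2a 3′ probe, the Htr2c 5′ probe and the Htr7 5′ probe, control 2 lies among the stressed rats and the other 3 control rats lie below them. Each panel title gives the number of arrays on which the probe was above background (bg).

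No receptor probe met the study's threshold. In the limma fit across 23677 tested probes, 0 of the 12 tested receptor probes were called at an adjusted p (FDR) below 0.1, where 3.74% of all tested probes were called, and 0 of 12 below 0.05, where 0.477% were. At an unadjusted limma p below 0.05, 4 of 12 passed, against 20.3% of all tested probes. In 0 of 12 did the values of the stressed and control rats fail to overlap, against 12.1% of all tested probes. The mean was higher in stressed rats in 9 of the 12 probes and lower in 3, and 59.6% of all tested probes had a higher mean in stressed rats.

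Among the Gi/o-coupled receptors, Htr1a had the largest difference. Htr1a is the autoreceptor of raphe neurons and a postsynaptic inhibitory receptor elsewhere. Its log2 levels were -6.31, -5.97, -6.40 and -6.15 in the stressed rats and -8.21, -6.16, -7.41 and -6.89 in the control rats. All 4 stressed rats lay above control 1, 3 and 4, while control 2 lay within their range, so the groups overlapped. The stressed rats were 0.96 higher (SE 0.39, 95% confidence interval 0.06 to 1.86, limma adjusted p = 0.227, exact permutation test p = 0.0857). Without control 2 the difference was 1.30 (limma adjusted p = 0.0163), without control 1 it was 0.62, and with the 5′ minus 3′ covariate it was 0.13. After normexp, another background correction, it was 0.25. In the 2 control rats in which Htr1a was not above background, its level is only a bound.

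Htr1b and Htr1d, which sit largely on nerve endings and reduce transmitter release, showed smaller differences. Htr1b was -6.38, -6.58, -6.93 and -7.07 in the stressed rats and -7.27, -6.27, -7.12 and -7.19 in the control rats. Control 2 was the highest of the 8 rats and the other 3 control rats were the lowest. The difference was 0.22 (SE 0.25, limma adjusted p = 0.631, exact permutation test p = 0.429). Without control 2 it was 0.45 (limma adjusted p = 0.0807), and with the covariate -0.32. Htr1d was -5.42, -5.61, -5.65 and -5.63 in the stressed rats and -5.89, -5.56, -5.67 and -5.63 in the control rats. The values of 6 of the 8 rats lay between -5.67 and -5.56, and the difference of 0.11 (SE 0.10, 95% confidence interval -0.11 to 0.33, limma adjusted p = 0.533) changed sign with the scaling, to -0.01 with median centring and -0.07 with quantile normalisation, and was -0.01 with the covariate.

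Htr5b had the lowest mean difference of the tested receptors, without passing the test. It belongs to the type 5 family, whose signalling is the least understood of the receptors. Its levels were -4.58, -4.78, -5.46 and -4.54 in the stressed rats and -4.67, -4.23, -4.46 and -4.45 in the control rats. Stressed 3 was the lowest of the 8, and control 1 lay below 2 of the stressed rats, so the groups overlapped. The difference was -0.39 (SE 0.21, 95% confidence interval -0.87 to 0.10, limma adjusted p = 0.326, exact permutation test p = 0.114). Over the 20 alternative settings it ranged from -0.58 to -0.14 and stayed lower in stressed rats. Without stressed 3 it was -0.18.

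Among the Gq-coupled type 2 receptors, the 3′ probe of Htr2a had the largest difference of any receptor probe. Htr2a raises the excitability of neurons, motor neurons among them. At its 3′ probe the stressed rats were at -4.02, -3.85, -3.98 and -4.23 and the control rats at -5.71, -4.02, -5.54 and -5.32. Control 2 lay level with the stressed rats and the other 3 control rats were more than 1 log2 unit below them. The difference was 1.13, or 2.19-fold (SE 0.35, 95% confidence interval 0.33 to 1.93, limma adjusted p = 0.151, exact permutation test p = 0.0571). Without control 2 it was 1.51 (limma adjusted p = 0.000722), with the covariate 0.25 and with normexp 0.57.

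The 5′ probe of Htr2a gave a smaller value. The stressed rats were at -4.07, -4.22, -4.17 and -4.48 and the control rats at -4.71, -3.85, -4.78 and -4.91. Control 2 was the highest of the 8 and the other 3 control rats were the lowest. The difference was 0.33 (SE 0.23, limma adjusted p = 0.437). Without control 2 it was 0.57 (limma adjusted p = 0.00844), and with the covariate -0.20.

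Htr2b, known from stomach, heart valves and vessels, was spread widely within the stressed group. It was at -5.41, -5.22, -5.02 and -6.16 in the stressed rats and at -5.91, -5.22, -5.53 and -5.50 in the control rats. Stressed 4 was the lowest and stressed 3 the highest of the 8 rats. The difference was 0.09 (SE 0.25, limma adjusted p = 0.856) and its sign changed with quantile normalisation (-0.10), median centring (-0.03) and the covariate (-0.24). The 95% confidence interval ran from -0.50 to 0.68.

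Htr2c, expressed by neurons of the cord including motor neurons and edited in its RNA, was measured by 2 probes. The unscaled signal of the 3′ probe was 4427 to 8220 and that of the 5′ probe, 2318 bases upstream, was 26.5 to 57.8. The 5′ probe was at -5.24, -5.01, -5.11 and -5.31 in the stressed rats and at -6.33, -5.11, -6.34 and -6.24 in the control rats. Control 2 was level with the stressed rats and the other 3 control rats were lower than every stressed rat. The difference was 0.84 (SE 0.27, 95% confidence interval 0.20 to 1.47, limma adjusted p = 0.168, exact permutation test p = 0.0857), and it was 1.14 without control 2 (limma adjusted p = 0.000668) and 0.16 with the covariate. With normexp it was 0.30.

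The 3′ probe of Htr2c was at 1.62, 1.65, 1.36 and 1.81 in the stressed rats and at 1.86, 1.27, 1.83 and 1.80 in the control rats. Control 2 was the lowest of the 8 and the other controls were near the top. The difference was -0.08 (SE 0.16, 95% confidence interval -0.45 to 0.29, limma adjusted p = 0.787), and 0.26 with the covariate.

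**Figure D2:**
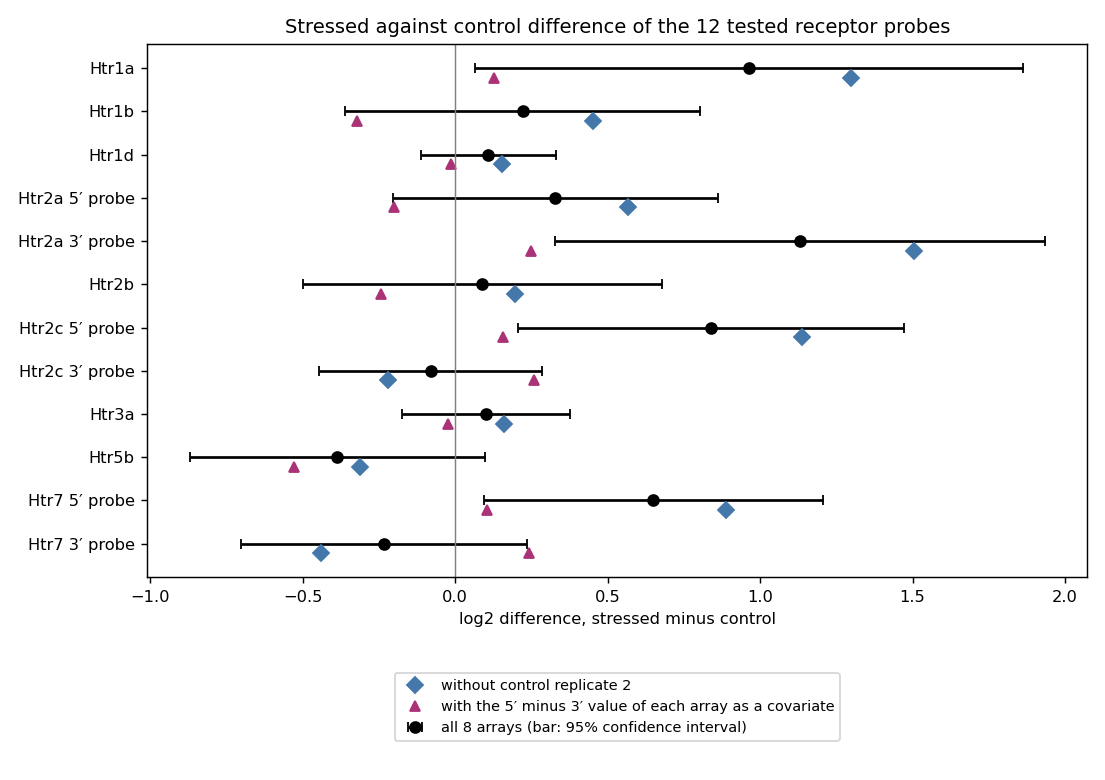
Log2 difference, stressed minus control, of the 12 tested receptor probes (horizontal axis) for all 8 arrays (circle, with the 95% confidence interval), without control 2 (diamond) and with the 5′ minus 3′ value of each array as a covariate (triangle). The intervals of Htr1a, the Htr2a 3′ probe, the Htr2c 5′ probe and the Htr7 5′ probe lie above 0 before adjustment for 23677 probes, and all 4 triangles lie between 0.10 and 0.25.

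The ion channel receptor Htr3a, which nerve terminals of sensory neurons and interneurons carry, did not pass the test and had a narrow interval. It was at -0.67, -1.06, -1.15 and -0.89 in the stressed rats and at -1.09, -0.87, -1.12 and -1.09 in the control rats. Stressed 1 was the highest and stressed 3 the lowest of the 8 rats, so the groups overlapped throughout. The difference was 0.10 (SE 0.12, limma adjusted p = 0.639), and the 95% confidence interval of -0.17 to 0.38 excludes a rise of 1 log2 unit. With median centring it was -0.01, and with the covariate -0.02. Control 2 was higher than the other 3 control rats, which lay close together. The summed signal of 7 markers of Schwann cells and sensory ganglia, which could carry Htr3a RNA from attached roots, was 23.5 to 32.5 times the 75th percentile in the stressed rats and 26.3 to 88.5 in the control rats, and its part in the Htr3a value was not tested.

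Htr7, a Gs-coupled receptor, also had 2 probes, and their differences were of opposite sign. The 5′ probe was at -5.20, -5.22, -5.46 and -5.33 in the stressed rats and at -6.01, -5.23, -6.49 and -6.09 in the control rats. Control 2 lay among the stressed rats and the other 3 lay below them. The difference was 0.65 (SE 0.24, 95% confidence interval 0.09 to 1.21, limma adjusted p = 0.201, exact permutation test p = 0.0857), and 0.89 without control 2 (limma adjusted p = 0.00336) and 0.10 with the covariate. With normexp it was 0.25, and the median unscaled signal of this probe was 45.6.

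The 3′ probe of Htr7 was at -1.42, -1.46, -1.68 and -1.26 in the stressed rats and at -1.01, -1.84, -1.02 and -1.02 in the control rats. Control 2 was the lowest of the 8 rats and the other 3 control rats, nearly equal, were the highest. The difference was -0.23 (SE 0.20, limma adjusted p = 0.528). Without control 2 it was -0.44 (limma adjusted p = 0.0158) and with the covariate it was 0.24.

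Leaving out control 2 made 7 of the 12 receptor probes pass an FDR of 0.1 in limma, against 42.4% of all tested probes. The probes of Htr1a and Htr1b, both probes of Htr2a and the 5′ probes of Htr2c and Htr7 were higher in stressed rats, and the 3′ probe of Htr7 was lower. In those 3 control rats and 4 stressed rats, 7 receptor probes did not overlap, against 43.8% of all tested probes. The 5′ minus 3′ value also parts these rats by group, so stress and that value cannot be told apart in these calls. Array weights, which gave control 2 a weight of 0.11, called 7 of 12, against 50.6%. With the covariate, a fit that rests mostly on control 2, 0 of 12 were called, against 10.1%.

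**Figure D3:**
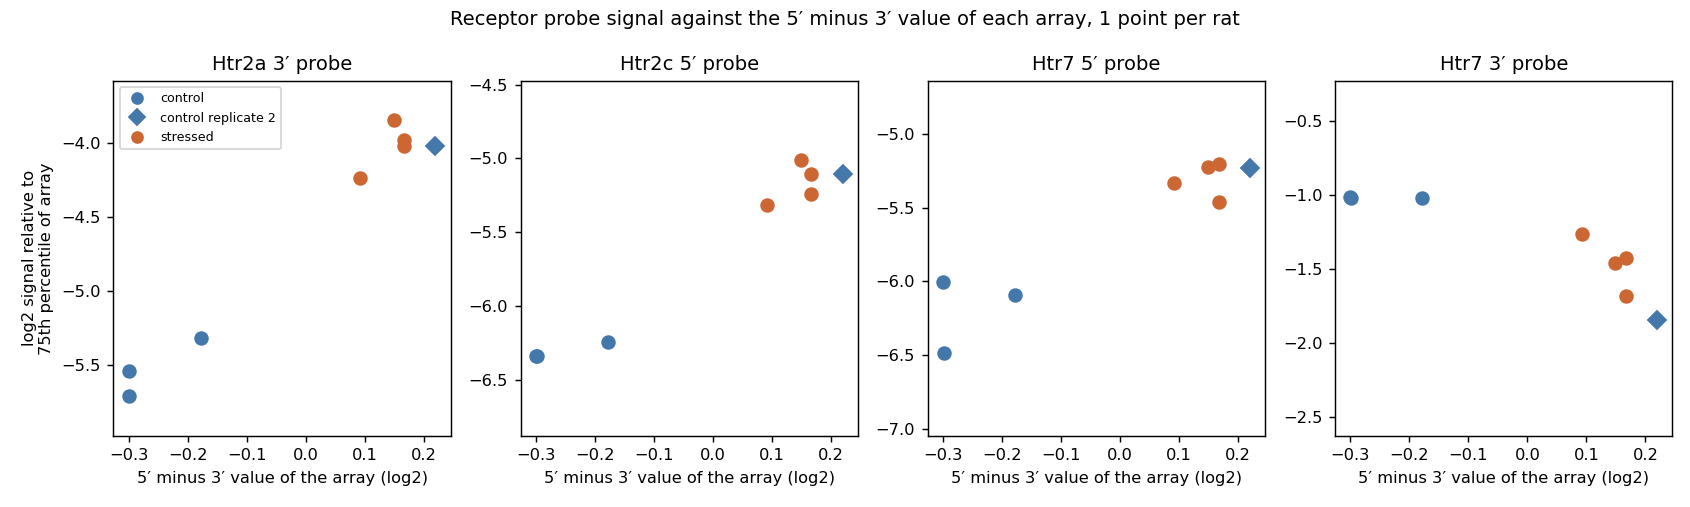
Scaled log2 signal of 4 receptor probes, with the array's 75th percentile at 0 (vertical axis) against the 5′ minus 3′ value of each array (horizontal axis, log2, centred over the 8 arrays), 1 point per rat. Control 2, at 0.22, lies beside the stressed rats (0.09 to 0.17) in all 4 panels and apart from the other 3 control rats (-0.30 to -0.18). For the 3′ probe of Htr7 the order is turned, with those 3 rats on top.

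The difference between the 2 probes of a gene was compared between groups in the same arrays, a comparison chosen after the values of the probes had been seen. A change shared by both probes cancels in it. The array design lists the probes of Htr2a, and those of Htr7, on different transcript records, so in these a change of 1 transcript form need not cancel. For Htr2a the 5′ probe minus the 3′ probe, 1388 bases apart on the genome, was -0.06, -0.37, -0.19 and -0.24 in the stressed rats and 1.001, 0.17, 0.76 and 0.41 in the control rats. The groups did not overlap, and of the control rats control 2 lay closest to them. In a limma fit over 1887 such pairs the stressed rats were 0.80 lower (difference -0.80, SE 0.19, adjusted p = 0.0802, exact permutation test p = 0.0286, the smallest that 4 against 4 allows), where 8.59% of pairs were called and 0.689% had a lower difference. It was -0.94 without control 2 (limma adjusted p = 0.00139), where 66.2% of pairs were called, and it no longer passed with the covariate (-0.45, limma adjusted p = 0.157) or with normexp (-0.36, limma adjusted p = 0.127).

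The pairs of Htr2c and Htr7 did not pass, and their differences were above 0, as were those of 80.2% of all pairs. For Htr2c the difference between groups was 0.92 (SE 0.40, limma adjusted p = 0.182) and for Htr7, whose probes lay 10300 bases apart on the genome, it was 0.88 (SE 0.40, limma adjusted p = 0.192). In both, control 2 was the highest of the 8 rats and the other 3 control rats were the lowest. Without control 2 the differences were 1.36 for Htr2c (limma adjusted p = 0.000451) and 1.33 for Htr7 (limma adjusted p = 0.000364), and with the covariate they were -0.10 and -0.14. With normexp they were 0.38 and 0.47.

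**Figure D4:**
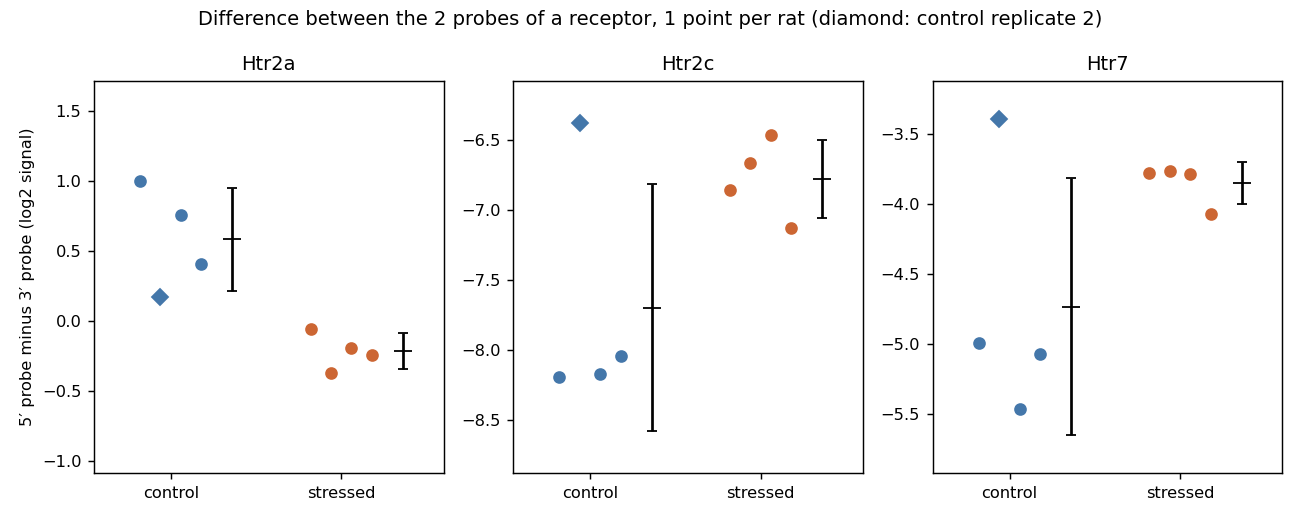
Difference in log2 signal, 5′ less 3′ probe, for Htr2a, Htr2c and Htr7 (vertical axis) in 4 control and 4 stressed rats, with 1 point per rat, control 2 as a diamond and the mean ± SD beside each group. The stressed rats lie below all 4 control rats for Htr2a, and above 3 of them for Htr2c and Htr7.

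The 4 other serotonin receptor genes on the array are not among the 10. None was called in limma with all 8 arrays, against 3.74% of all tested probes at an FDR of 0.1. Without control 2, 2 of the 3 that were tested were called, against 42.4% of all tested probes. Htr6, a Gs-coupled receptor, was above background on all 8 arrays and differed by 0.19 (limma adjusted p = 0.403). Htr5a was above background in 3 stressed rats and 1 control rat, so its level in the other rats is only a bound. Its difference was 0.61 (limma adjusted p = 0.208), 0.82 without control 2 (limma adjusted p = 0.0106), 0.14 with the covariate and 0.03 with normexp. Htr1f was above background in 1 stressed and 4 control rats, with the same limit, and differed by -0.37 (limma adjusted p = 0.395), by -0.54 without control 2 (limma adjusted p = 0.0938), by -0.05 with the covariate and by 0.05 with normexp. Htr3b, which joins Htr3a in the channel, was above background on no array.

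Beyond the receptors, lists of genes that make, carry or break down serotonin, or that pass on the receptors' signal, held 52 genes with the 4 other receptors, of which 51 were tested. In limma 1 of the 51 was called higher and 0 lower at an FDR of 0.1, where 3.74% of all tested probes were called. With 1 probe per gene symbol, 602 of 13375 were called. The called gene was Gnai1, which encodes a Gi protein subunit and is listed with other Gi/o subunits through which the type 1 receptors can signal. It was at -2.53, -2.27, -2.24 and -2.61 in the stressed rats and at -3.40, -3.11, -2.999 and -2.92 in the control rats. The groups did not overlap, and control 2 lay within the other control rats. The difference was 0.70 (SE 0.13, limma adjusted p = 0.0658, exact permutation test p = 0.0286). It kept an adjusted p below 0.1 in 12 of the 20 alternatives, with the covariate (0.65, limma adjusted p = 0.0988) among them, and lost it when any 1 array other than control 2 was left out, in a range of 0.119 to 0.201, and with the replicate block (limma adjusted p = 0.207).

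Among the 9 Gi/o and GIRK channel genes Gnai1 was the single call, and the other lists held none in limma. Of the 10 genes of synthesis, transport and breakdown, the smallest p were those of Slc18a1, a vesicular monoamine transporter, at -0.38 (adjusted p = 0.166) and Slc6a4, the serotonin transporter, at 0.68 (adjusted p = 0.181). Of the 7 Gq genes they were Plcb3 at 0.72 (adjusted p = 0.181) and Gna11 at 0.77 (adjusted p = 0.235). Of the 11 Gs genes they were Adcy2 at -0.25 (adjusted p = 0.222) and Adcy1 at 1.25 (adjusted p = 0.302), which was above background in 3 stressed rats and 1 control rat and is no exact difference, and of the 11 partners and regulators they were Dlg4 at 0.86 (adjusted p = 0.165) and Rgs4 at -0.14 (adjusted p = 0.300). Slc6a4, Plcb3, Gna11, Adcy1 and Dlg4 were each lower in control 1, 3 and 4 than in control 2 and in all stressed rats. The median difference was 0.11 for the synthesis and transport list, 0.08 for the Gi/o list, 0.24 for the Gq list, 0.04 for the Gs list and 0.001 for the partners, beside 0.06 for all tested probes. Each gene of a list was represented by its probe of highest signal. Dimmer probes, left out of this ranking, had smaller p in some genes. Those of Plcb1 (0.565, limma adjusted p = 0.178), Itpr1 (0.28, limma adjusted p = 0.192) and Adcy7 (0.80, limma adjusted p = 0.269) ranked ahead of Plcb3, Gna11 and Adcy1. Over all tested gene symbols, with 1 probe each, the median was 0.02.

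The tissue carried the markers of its cell types. Of 9 neuron markers on the array all were above background on the 8 arrays and none was called, with a summed signal of 93.8 to 104.9 times the 75th percentile in the stressed rats and 92.4 to 101 in the control rats. The gene named from each list is the one whose probe had the highest signal, which gives no order of RNA levels. It was Snap25 for the neuron markers, Ache for the motor neuron markers, Aqp4 for the astrocyte, C1qa for the microglia, Mbp for the oligodendrocyte, Igf2 for the meningeal, Vwf for the endothelial, Calca for the ganglion, Hba-a2 for the red blood cell and Hoxd9 for the lumbosacral markers. At an FDR of 0.1, 3.74% of all tested probes were called. Of the 6 oligodendrocyte markers 1 was called, Mog (0.90, limma adjusted p = 0.0721), and the other 5 had differences of -0.03 for Mobp to 1.69 for Cnp. Of the 6 endothelial markers 1 was called, Pecam1 (0.40, limma adjusted p = 0.0927), and the other 5 had differences of -0.32 for Vwf to 0.28 for Cdh5. Of the 6 markers of raphe serotonin neurons, Fev and Gata3 were above background on no array. The other 4 were above background on all 8. These were the serotonin-synthesising enzyme Tph2, the transporter Slc6a4, Gata2, and Lmx1b, whose probe had the highest signal of that list. Which cells carried these 4 was not tested, so their signal does not show raphe neurons in the tissue.

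For the 7 receptor genes above background on all arrays, the genes whose levels over the 8 arrays ran nearest to the receptor's probe of highest signal, by root mean square difference of centred log2 values, were Gltscr2 (0.04) and Fbxo42 (0.05) for Htr1d, Polr3g (0.05) and Nr4a2 (0.08) for Htr2a, Gcom1 and Srpk3 (both 0.15) for Htr2b, RragB and Cdk5 (both 0.03) for Htr2c, Adra1d (0.03) and Sspo (0.06) for Htr3a, T2 and Fpr2l (both 0.12) for Htr5b, and Elmod1 (0.04) and Zfp280d (0.05) for Htr7. The search covered the tested gene symbols, 13375 with the receptors, which were themselves left out. With 8 arrays this is a description of these rats.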

How the data were processed

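Spinal cord RNA of 8 rats was hybridised to Agilent rat arrays, 1 per rat. The authors deposited Feature Extraction 10.7.3.1 files, whose processed signal is an intensity, background-subtracted and detrended within each array and not scaled between arrays. The series value table held the same intensity, rounded, in 100% of rows. The study's own analysis used dChip. Here log2 of the signal minus each array's 75th percentile was taken, flagged and control spots were left out, and replicate spots were averaged. Probes entered the fit when at least 0.5 of their spots were well above background on 4 or more arrays. Groups came from the sample titles, which gave 4 stressed and 4 control rats. limma 3.58.1 in R 4.3.3 (lmFit, eBayes) compared them, with Benjamini-Hochberg adjustment over 23677 probes and an FDR of 0.1 as in the study. Single probes also had a two-sided exact permutation test over 70 choices of 4 arrays, whose smallest p is 0.0286. The fit was tested on simulated data. The number of arrays limits the precision.

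The receptors, pathway lists and cell type markers were chosen with earlier results of these data known. Genes named in the text were the 10 receptors, the 4 other receptors and the 2 nearest symbols of each receptor detected on all arrays. From each pathway list they were the called genes or otherwise the 2 with the smallest p. From each marker list they were the brightest gene and the called genes, and the 6 raphe markers were all named. The called marker genes and the full raphe list were added after their values were seen. Alternatives covered background correction, scaling, filters, variance model, array weights, a replicate block, a 5′ minus 3′ covariate and leaving out each array. Probe coordinates are the array design's, on rn4.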

Additional observations from a re-analysis of the deposited data

Results flagged for a closer look

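Dixon's ratio is the gap of a highest or lowest rat to its nearest rat, over the range of the group. In 26 sets of 4 rats (13 receptor probes in each group), such a rat lay far from the rest in 6. For independent sets, chance gives about 1 in 20, or 1.3. The sets here share the same arrays, with control 2 in every control set, so this comparison cannot show an excess for the receptors. How often such a rat occurs over all tested probes was not tested. Control 2 was the far rat in 5 of the 6. It stood above the other control rats for Htr1b (ratio 0.854), for the 5′ probe of Htr2c (0.920) and for Htr3a (0.862), and below them for the 3′ probes of Htr2c (0.904) and Htr7 (0.993). Stressed 1 stood above the other stressed rats for Htr1d (0.840). The critical ratio for 4 rats is 0.829. Control 2 also had the 5′ minus 3′ value of 0.22, and the part of that value in these ratios was not tested.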

How the results depend on the processing

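Of the differences of the 12 receptor probes over 20 alternatives, 206 kept their direction and their side of the threshold, 14 gained a call, 0 lost one and 15 changed sign. The 14 were those of 7 probes without control 2 and with array weights, each with 7 of 12 called (range 0 to 7 over arrays left out). With the 5′ minus 3′ covariate the sign turned for Htr1b (-0.32), Htr1d (-0.014), the 5′ probe of Htr2a (-0.20), Htr2b (-0.24), the 3′ probes of Htr2c (0.26) and Htr7 (0.24), and Htr3a (-0.023). With quantile normalisation it turned for Htr1d (-0.066) and Htr2b (-0.10), and with median centring, which moved the median of all tested probes by -0.12, for Htr1d (-0.007), Htr2b (-0.026) and Htr3a (-0.013). Leaving out 1 array turned Htr2b (-0.055 to 0.32) and the 3′ probe of Htr2c (-0.22 to 0.004). The covariate moved the median of all tested probes by -0.10. By the exact permutation test, 0 of 12 receptor probes passed 0.05, and 1 passed under each of normexp, quantile normalisation and median centring. Passing 0.05 in this test needs groups that do not overlap, as 12.1% of all tested probes had in the main setting. That share was not taken under the other settings, so the 1 probe cannot be set against it. Those settings of this test were chosen after seeing the data, as were the probe pairs and the pathway lists' settings.

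Over all tested probes, 885 were called at FDR 0.1, of which 74.0% were higher in stressed rats, a share of 88.4% with normexp, 61.3% with quantile normalisation and 47.2% with median centring. The count was 215 with normexp, 3010 with no filter, 11983 with array weights, 0 with the replicate block, 2390 with the covariate, and 0 to 10038 with 1 array left out, highest without control 2 and otherwise at most 72. At FDR 0.05 it was 113, and 39 with normexp, 172 with quantile normalisation, 19 with median centring, 13 with no filter, 237 with probes above background on all arrays, 353 with trend and robust estimation, 312 unmoderated, 9639 with array weights, 0 with the replicate block, 663 with the covariate, 45 with 1 probe per gene symbol, and 0 to 7655 with 1 array left out. Of the 51 pathway genes 1 was called, and 30 with array weights (50.6% of all tested probes), 0 with the replicate block, 5 with the covariate (10.1%) and 0 to 29 with 1 array left out, highest without control 2 (42.4%). The causes were not tested.

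The replicate numbers, which are also the slide columns, did not pair the rats: deviations of same-numbered rats correlated at 0.10, 0.12, -0.09 and 0.31, and 0 stressed rats correlated best with their own number. With the replicate block 0 receptor probes were called. Htr1a, Htr1b, Htr4, Htr1f, Htr5a, Htr3b and Adcy1 lay near background, where a bound is all that dim arrays give.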
